A study of Mus musculus with 34 samples.

Results

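The genes Pck1, G6pc, Fbp1, Slc2a2, Gys2, Pygl, Khk and Pklr encode liver enzymes and a transporter of gluconeogenesis, glycogen, fructose and glucose metabolism. They were taken by gene symbol from a count table of mouse hepatocytes, which lists all 8 among 24951 genes. Of these, 9679 genes had enough counts to be tested, and 7 of the 8 were among them. Each of the 7 had at least 29 counts in every library, while Pklr had 0 to 53 counts and is given by its values alone. After carbon tetrachloride (CCl4), 6 of the 7 tested genes fell in control mice, where 13.7% of the 9679 genes were called lower. In knockout mice 3 of the 7 fell, where 6.84% were called lower. None of the 7 was called by genotype in the reported fit, where 7.87% of all genes were without CCl4 and 0.176% after it.

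The liver makes glucose from lactate and amino acids by gluconeogenesis, stores it as glycogen and releases it to the blood between meals. Pck1, Fbp1 and G6pc encode the enzymes of the steps at which gluconeogenesis bypasses glycolysis, and Pklr encodes the pyruvate kinase that runs the last step of glycolysis in the liver. Gys2 makes glycogen, Pygl breaks it down, Khk starts the use of fructose, and Slc2a2 (GLUT2) carries glucose and fructose across the hepatocyte membrane. Gluconeogenic enzymes are known to be highest in hepatocytes near the portal vein, and glycolysis in those near the central vein. CCl4 injures hepatocytes near the central vein, whose cytochrome P450 enzymes turn it into a radical.

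All mice carried floxed alleles of Yap and Taz (Yap fl/fl Taz fl/fl) on a mixed B6;129P background and all received tamoxifen at 1.6 mg/kg on 5 days at 7 to 8 weeks of age, with 3 weeks of washout. Knockout mice also carried Opn-CreERt2, an inducible Cre recombinase under the osteopontin promoter, which is active in bile duct cells, and control mice were siblings without it. Some mice of each genotype were then given CCl4 at 1 ml/kg and were taken 48 h later. The untreated groups held 6 control and 5 knockout mice, and the treated groups 3 control and 4 knockout mice. The comparisons ask what CCl4 changed in each genotype, what the knockout changed without and after CCl4, and whether the CCl4 effect differed by genotype.

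Each of the 18 hepatocyte libraries held 931496 to 7535053 counts of 3′ end tags. The sequencing files were split here by file number, not by a label, at the widest gap over both cell types (14 to 25). This gave 2 series. The first holds 5 libraries, all from control mice (2, 7 and 8 without CCl4, 12 and 15 with it), at 4910846 to 7535053 counts. The second holds the other 13, at 931496 to 2411576 counts, among them every knockout library and 1 control library after CCl4 (mouse 16). For mouse 15 a description names a knockout liver while its genotype and group labels name a control, and it was kept as a control. The summed level of 8 hepatocyte markers was 73369 to 128647 CPM (counts scaled to one library size, with TMM factors) with none at 0 in any library, against 16.6 to 1526 CPM for 12 Kupffer cell markers. Yap1 was at 37.9 to 76.9 CPM and Wwtr1 at 11.7 to 40.6 CPM across the hepatocyte groups. This does not check the knockout label, because the Cre acts in bile duct cells and tags at the 3′ end need not cover the deleted exons.

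Promoter windows are shown for the gluconeogenic genes Pck1 and G6pc and for Khk, because Pck1 and Khk fell most after CCl4 in control mice, G6pc had the lowest fold change in both knockout comparisons, and each holds 1 of the motifs searched. The windows run from 250 bases before to 50 after the gene's start in RefSeq (GRCm38.p6), 5′ to 3′ on the gene's strand, which is the plus strand for all 3, with the motif in capitals.
Pck1, chr2:173152823-173153122: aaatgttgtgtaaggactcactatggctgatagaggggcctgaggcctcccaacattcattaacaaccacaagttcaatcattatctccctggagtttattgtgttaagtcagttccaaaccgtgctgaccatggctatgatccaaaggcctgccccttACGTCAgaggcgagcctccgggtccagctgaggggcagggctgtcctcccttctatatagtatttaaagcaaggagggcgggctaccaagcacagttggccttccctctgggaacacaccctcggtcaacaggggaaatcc
G6pc, chr11:101367466-101367765: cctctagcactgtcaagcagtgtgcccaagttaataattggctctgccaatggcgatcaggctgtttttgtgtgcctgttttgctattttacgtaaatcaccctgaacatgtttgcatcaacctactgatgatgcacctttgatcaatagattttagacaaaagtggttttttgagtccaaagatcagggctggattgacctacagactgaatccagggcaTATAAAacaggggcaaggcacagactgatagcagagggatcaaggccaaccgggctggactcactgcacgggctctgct
Khk, chr5:30921309-30921608: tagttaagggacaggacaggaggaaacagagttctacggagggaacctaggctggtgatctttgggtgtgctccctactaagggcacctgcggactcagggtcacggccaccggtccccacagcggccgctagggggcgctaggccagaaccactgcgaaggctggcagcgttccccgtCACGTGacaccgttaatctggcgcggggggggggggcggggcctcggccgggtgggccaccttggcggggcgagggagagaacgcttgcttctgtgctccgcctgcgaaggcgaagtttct
The capitals mark ACGTCA in Pck1, the core of a cyclic AMP response element, 91 to 86 bases before the start. In G6pc they mark the TATA box TATAAA, 29 to 24 bases before the start, and in Khk the E-box CACGTG, 71 to 66 bases before it. Each of these motifs and the forkhead motif TGTTTAC were searched on both strands, and no match overlapped another. Among all 32851 promoter windows of this length, 7.51% held ACGTCA, 3.65% TGTTTAC, 7.15% CACGTG and 13.6% the TATA box. RefSeq windows matched 7 of the 8 genes, and a window of Pklr also held TATAAA, 31 to 26 bases before its start. A match describes the letters of the window and is not evidence of a bound factor. The distances refer to RefSeq starts, while the gene coordinates given below are from GENCODE. The GENCODE starts of Pck1, G6pc and Khk lie upstream of the RefSeq ones, and in G6pc and Khk also upstream of the marked motif.

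In control mice CCl4 lowered sugar metabolism genes of several kinds within 48 h. Pck1 fell 3.50-fold, Khk 3.38-fold, Gys2 2.22-fold, Slc2a2 2.07-fold, Fbp1 1.89-fold and Pygl 1.84-fold, and G6pc was 1.78-fold lower without passing the test. Thus 6 of 7 genes were called, all lower, where 13.7% of the 9679 genes were called lower and 27.4% in either direction (3 against 6 mice, edgeR's quasi-likelihood F test, adjusted p under 0.05 by Benjamini-Hochberg). Their median log2 fold change was -1.05, against -0.008 for all genes tested. TMM factors were 0.771 to 0.912 in untreated and 1.08 to 1.18 in treated controls, and the falls were smaller on library totals alone. On totals, means went from 3913 to 1491 CPM for Pck1, 206 to 79.7 for Khk and 75.2 to 44.9 for Gys2. They went from 490 to 314 CPM for Slc2a2, 790 to 546 for Fbp1, 303 to 218 for Pygl and 907 to 680 for G6pc. Among the 8 hepatocyte markers 2 fell, with a median of -0.19. In bulk libraries, fewer cells of a type and less RNA per cell cannot be told apart.

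In knockout mice fewer of these genes were called after CCl4, and neither glycogen gene passed. Pck1 fell 2.75-fold, Khk 2.19-fold and Slc2a2 1.75-fold, which is 3 of 7 genes where 6.84% of all genes were called lower and 13.9% in either direction (the same test, 4 against 5 mice). The median log2 fold change of the 7 genes was -0.81, against -0.02 for all genes. TMM factors were 0.931 to 1.07 without and 1.16 to 1.32 with CCl4. On library totals alone, means went from 3337 to 1450 CPM for Pck1, 183 to 101 for Khk and 682 to 467 for Slc2a2, but from 258 to 277 for Pygl. G6pc, Fbp1, Gys2 and Pygl also had fold changes below 0 in knockout mice but did not pass. The genotype difference of the CCl4 effect was not called for any of them, so the shorter list in knockout mice does not show a different response.

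**Figure D1:**
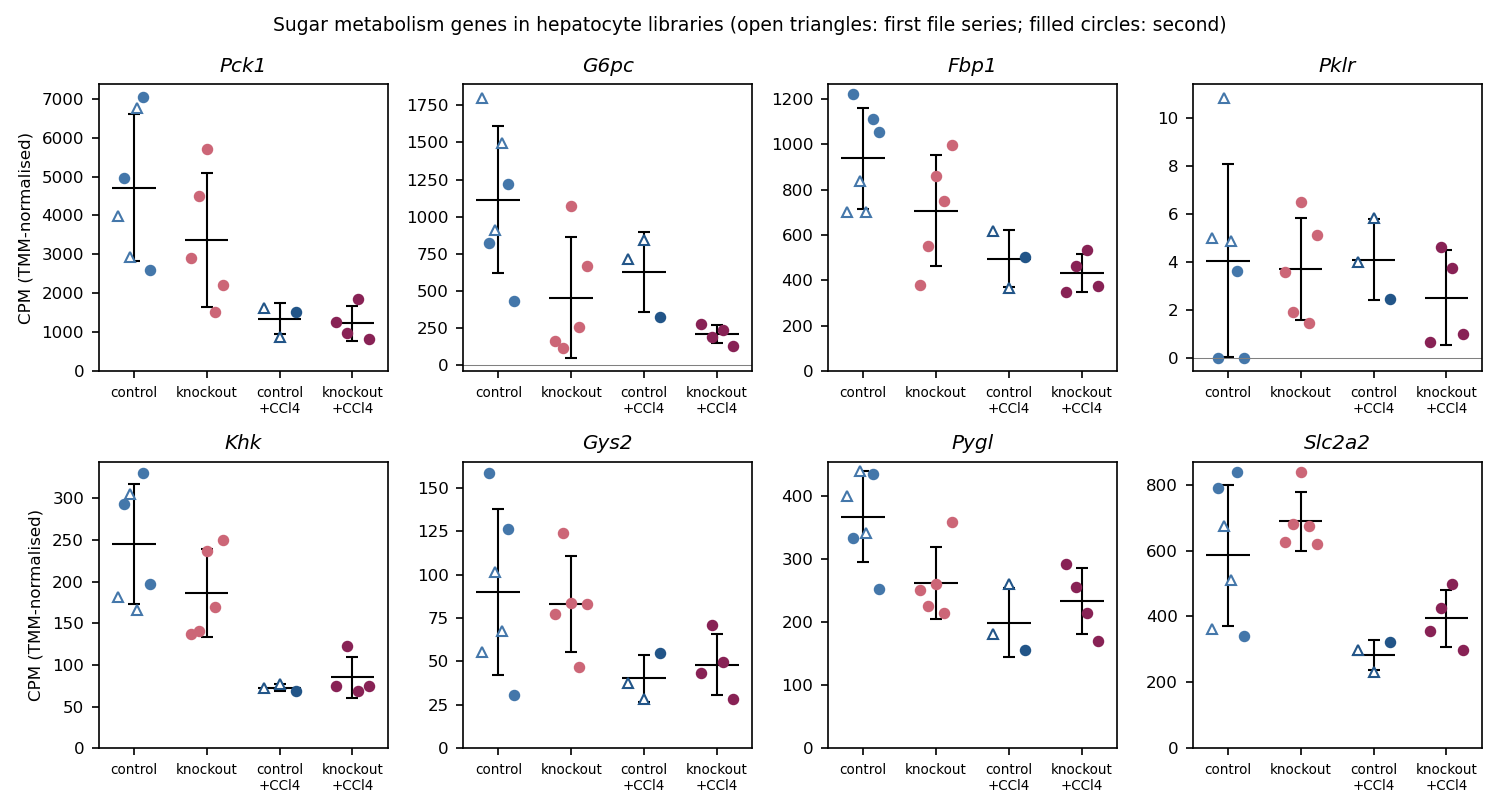
Level of each of the 8 genes in the 18 hepatocyte libraries, in CPM scaled by TMM factors, by group on the x axis. Open triangles are libraries of the first file series, filled circles those of the second, and bars the mean and SD. The 3 control libraries after CCl4 lie between 68.4 and 76.8 CPM for Khk, all below the lowest control library without CCl4 at 166 CPM.

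Pck1 (chromosome 2, 173153048 to 173159273, plus strand, GRCm38) encodes cytosolic phosphoenolpyruvate carboxykinase, which commits oxaloacetate to gluconeogenesis. In the 6 control libraries without CCl4 its level was lowest at 2587 CPM, had a median of 4470 CPM and was highest at 7052 CPM. After CCl4 the controls were at 1633 (mouse 12), 882 (mouse 15) and 1528 CPM (mouse 16). The groups did not overlap, and the log2 fold change was -1.81 (SE 0.427, adjusted p = 0.00373). Over all genes 11.7% lay wholly lower after CCl4 in this way. Knockout mice without CCl4 were at 2905 (mouse 4), 4495 (mouse 5), 5717 (mouse 10), 1510 (mouse 20) and 2216 CPM (mouse 21). After CCl4 they were at 1262 (mouse 13), 970 (mouse 14), 1844 (mouse 17) and 829 CPM (mouse 18). Here the highest treated library lay above the lowest untreated one, so the groups overlapped, and the log2 fold change was -1.46 (SE 0.386, adjusted p = 0.0160). Pck1 did not pass in knockout mice without mouse 14 (log2 fold change -1.36, adjusted p = 0.0525) or without mouse 18 (-1.31, adjusted p = 0.0659), nor without the filter on low counts (-1.45, adjusted p = 0.0795).

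G6pc (chromosome 11, 101367561 to 101377903, plus strand) encodes the catalytic subunit of glucose-6-phosphatase, which frees glucose for release. Relative to the mean, it had the widest spread of the 7 tested genes in knockout mice without CCl4 (coefficient of variation 90.2%). Control libraries without CCl4 ranged from 433 to 1804 CPM with a median of 1063 CPM. After CCl4 the controls were at 711 (mouse 12), 844 (mouse 15) and 324 CPM (mouse 16), within and below that range. Knockout mice without CCl4 were at 160 (mouse 4), 113 (mouse 5), 1068 (mouse 10), 254 (mouse 20) and 667 CPM (mouse 21), a mean of 452 ± 408 CPM (SD, n = 5). With CCl4 they were at 273 (mouse 13), 185 (mouse 14), 233 (mouse 17) and 129 CPM (mouse 18). Mice 10 and 21 without CCl4 lay above the other 3 untreated knockout mice and above all treated knockout mice. The CCl4 effect did not pass in controls (log2 fold change -0.83, SE 0.616, adjusted p = 0.354) or in knockout mice (-1.14, SE 0.587, adjusted p = 0.234). Within the first file series both treated controls lay below the untreated controls at 908, 1497 and 1804 CPM, and within the second the treated control lay below 433, 822 and 1218 CPM. With 2 and 1 treated libraries, 17.4% of all genes lay lower in both series in this way.

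Fbp1 (chromosome 13, 62864753 to 62888282, minus strand) encodes fructose-1,6-bisphosphatase, which opposes phosphofructokinase. Control libraries without CCl4 lay between 700 and 1221 CPM with a median of 946 CPM. After CCl4 they were at 616 (mouse 12), 365 (mouse 15) and 505 CPM (mouse 16), all below the untreated ones, and Fbp1 fell by 0.92 in log2 units (SE 0.275, adjusted p = 0.0160). Scaled by library totals alone, without TMM factors, the groups overlapped. The call was lost without mouse 15, the library with the conflicting label (log2 fold change -0.74, adjusted p = 0.102). In knockout mice the levels were 378 (mouse 4), 551 (mouse 5), 862 (mouse 10), 751 (mouse 20) and 997 CPM (mouse 21) without CCl4. They were 350 (mouse 13), 465 (mouse 14), 533 (mouse 17) and 376 CPM (mouse 18) with it. These groups overlapped, and the log2 fold change of -0.72 did not pass (SE 0.256, adjusted p = 0.0668). It did with the series term in the fit, at the same log2 fold change of -0.72 (adjusted p = 0.0449), and also without knockout mouse 4, whose untreated level was the lowest (-0.88, adjusted p = 0.0160).

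Slc2a2 (chromosome 3, 28697903 to 28731359, plus strand) encodes GLUT2, the glucose transporter of the hepatocyte membrane. Untreated controls ranged from 341 to 839 CPM with a median of 594 CPM. After CCl4 the controls were at 297 (mouse 12), 232 (mouse 15) and 321 CPM (mouse 16). No treated library reached the lowest untreated one, and the log2 fold change was -1.05 (SE 0.266, adjusted p = 0.00547), but on library totals alone the groups overlapped. Knockout mice without CCl4 were at 627 (mouse 4), 681 (mouse 5), 839 (mouse 10), 674 (mouse 20) and 620 CPM (mouse 21). After CCl4 they were at 356 (mouse 13), 425 (mouse 14), 498 (mouse 17) and 298 CPM (mouse 18). These groups did not overlap on either scale, where 6.37% of all genes lay wholly lower, and Slc2a2 fell by 0.81 in log2 units (SE 0.246, adjusted p = 0.0322). That call was narrow. It was lost with each library thinned to the smallest total (-0.72, adjusted p = 0.109) and when any of knockout mice 5, 10, 13, 14 or 18 was left out, with log2 fold changes of -0.85 to -0.69 and adjusted p = 0.0505 to 0.122.

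Gys2 (chromosome 6, 142422613 to 142473109, minus strand) encodes the liver glycogen synthase. Untreated controls ranged from 30.8 to 158 CPM with a median of 84.4 CPM. After CCl4 the controls were at 37.6 (mouse 12), 28.5 (mouse 15) and 54.9 CPM (mouse 16). An untreated library, mouse 19 at 30.8 CPM and 29 counts, was as low as the treated ones, so the groups overlapped. Gys2 fell by 1.15 in log2 units (SE 0.416, adjusted p = 0.0479), close to the threshold, and passed in 6 of 20 other settings, with log2 fold changes of -1.43 to -0.89 and adjusted p = 0.0141 to 0.532. Leaving out control mouse 6, 7, 8, 9, 12 or 15 each ended the call. Knockout mice without CCl4 were at 77.6 (mouse 4), 124 (mouse 5), 83.7 (mouse 10), 46.6 (mouse 20) and 83.1 CPM (mouse 21). With CCl4 they were at 43.4 (mouse 13), 71.2 (mouse 14), 49.7 (mouse 17) and 28.5 CPM (mouse 18), overlapping the untreated ones. The log2 fold change of -0.80 did not pass (SE 0.395, adjusted p = 0.208).

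Pygl (chromosome 12, 70190811 to 70231488, minus strand) encodes the liver glycogen phosphorylase. Untreated controls ranged from 251 to 439 CPM with a median of 370 CPM. After CCl4 the controls were at 181 (mouse 12), 261 (mouse 15) and 155 CPM (mouse 16). Mouse 15 lay above the lowest untreated control, so the groups overlapped by 1 library. Within each file series they did not: mice 12 and 15 lay below 340, 400 and 439 CPM in the first, and mouse 16 below 251, 333 and 434 CPM in the second, as for 17.4% of all genes. Pygl fell by 0.88 in log2 units (SE 0.228, adjusted p = 0.00633). In knockout mice it was at 250 (mouse 4), 225 (mouse 5), 261 (mouse 10), 214 (mouse 20) and 359 CPM (mouse 21) without CCl4. It was at 292 (mouse 13), 256 (mouse 14), 215 (mouse 17) and 170 CPM (mouse 18) with CCl4, over much the same range. The log2 fold change was -0.17 (SE 0.212, adjusted p = 0.664), with a 95% interval of -0.61 to 0.27.

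Khk (chromosome 5, 30921431 to 30931248, plus strand) encodes ketohexokinase, which phosphorylates fructose. Of the 7 genes, it alone passed in both CCl4 comparisons under each of the 20 other settings run for each, of which the second file series alone rests on 1 treated control. Untreated controls ranged from 166 to 330 CPM with a median of 245 CPM. After CCl4 the controls were at 72.1 (mouse 12), 76.8 (mouse 15) and 68.4 CPM (mouse 16), a mean of 72.4 ± 4.23 CPM (SD, n = 3). The groups were far apart, and the log2 fold change was -1.76 (SE 0.271, adjusted p = 5.95e-05). Knockout mice without CCl4 were at 137 (mouse 4), 141 (mouse 5), 236 (mouse 10), 170 (mouse 20) and 249 CPM (mouse 21). With CCl4 they were at 74.8 (mouse 13), 122 (mouse 14), 68.5 (mouse 17) and 74.3 CPM (mouse 18). Mouse 14 stood above the other 3 treated libraries, and all 4 lay below the untreated ones. Khk fell by 1.13 on the log2 scale in knockout mice (SE 0.248, adjusted p = 0.00398).

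Pklr (chromosome 3, 89136142 to 89146784, plus strand) was detected in 16 of 18 libraries and at 0 counts in control mice 6 and 19. Its counts reached 53 in the deeply sequenced library of control mouse 7, which is 10.9 CPM. Group means were 4.06 ± 4.03 CPM in untreated controls (SD, n = 6), 3.72 ± 2.12 CPM in untreated knockout mice (n = 5), 4.10 ± 1.67 CPM in treated controls (n = 3) and 2.52 ± 1.98 CPM in treated knockout mice (n = 4). All 4 groups overlapped. For a library of 991175 counts, that of mouse 6, 0 counts allow a level of up to 3.03 CPM of the library total, counting error only. The mean of its group on that scale was 3.25 CPM.

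**Figure D2:**
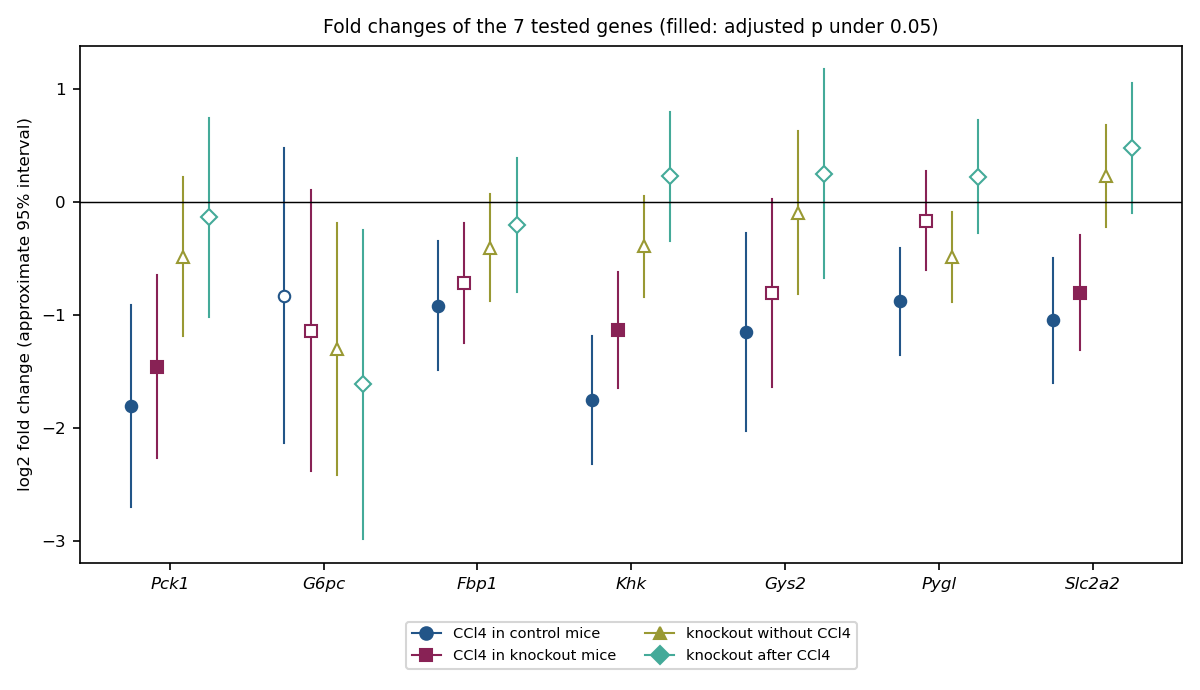
Log2 fold change of the 7 tested genes in 4 comparisons, with approximate 95% intervals. Symbols are filled where the adjusted p is under 0.05. For CCl4 in control mice 6 of 7 symbols are filled and for CCl4 in knockout mice 3 of 7, all below 0, and in the knockout comparisons none is filled.

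The file series and the label of mouse 15 bear on the control comparison. With the series as a term, 5 of 7 genes were called, and Gys2 did not pass (log2 fold change -1.08, adjusted p = 0.0512). Within the second series mouse 16 is the only treated control, and the fit assumes that it varies like the libraries of the other groups. There Khk alone was called (log2 fold change -1.95, SE 0.446, adjusted p = 0.0194). The other 6 fold changes there ran from -1.62 for Pck1 to -0.89 for Gys2, the same direction with larger errors. With mouse 15 moved to the knockout group, Pck1 (-1.58), Khk (-1.80) and Pygl (-1.13) passed in controls. In that setting Pck1, Khk, Slc2a2 and Fbp1 passed in knockout mice.

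**Figure D3:**
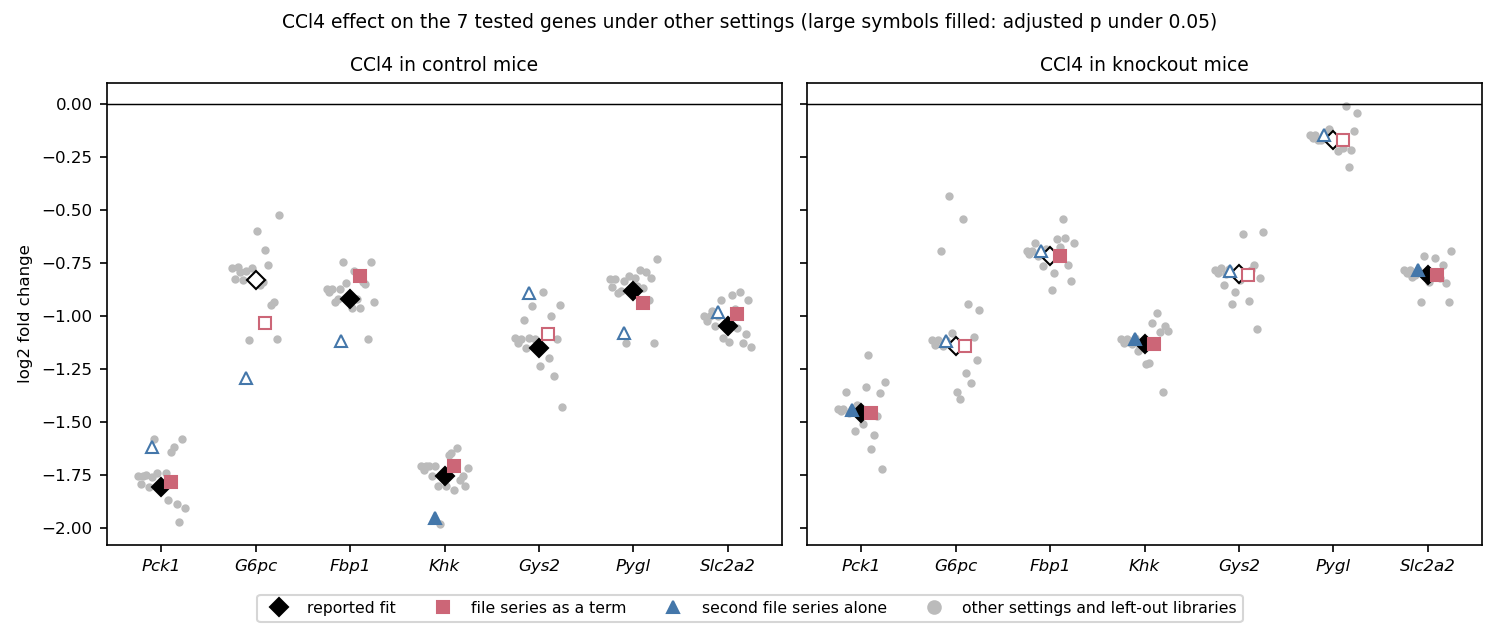
Log2 fold change after CCl4 of the 7 tested genes in control mice (left) and knockout mice (right), for the reported fit, the fit that includes the file series, the second series alone, and the other settings and left-out libraries as small points. Every value for CCl4 lies below 0 in both panels, and Khk is filled in all 3 large symbols of both. In control mice the second series holds 1 treated library.

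Markers of hepatocyte zones and of other cells are given beside the shares called over all genes after CCl4, 27.4% in controls and 13.9% in knockout mice. In controls 6 of 8 pericentral hepatocyte markers fell (median log2 fold change -3.42) and 4 of 8 periportal ones (median -1.70), while 5 of 12 Kupffer cell, 6 of 11 stellate cell, 1 of 12 endothelial and 2 of 6 biliary markers rose and 1 biliary marker fell. None of 5 acinar markers was called there, with 1 at an unadjusted p under 0.05. The summed Kupffer markers were 401 to 567 CPM in treated controls against 16.6 to 375 CPM in untreated ones, and the summed stellate markers 592 to 1609 CPM against 21.4 to 629 CPM. In knockout mice after CCl4, 6 of 8 pericentral and 5 of 8 periportal markers fell (medians -2.92 and -1.27), 2 of 8 hepatocyte markers fell, 3 of 6 biliary markers rose, and no Kupffer, stellate, endothelial or acinar marker was called, with 3 of them at an unadjusted p under 0.05. There the summed Kupffer markers were 170 to 323 CPM against 161 to 1526 CPM in untreated knockout mice. Their part in the changes of the sugar metabolism genes was not tested.

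Without CCl4, knockout of Yap and Taz was accompanied by no called change in the 7 genes. The fold changes were below 0 for 6 of them, with G6pc the lowest, and above 0 for Slc2a2. By edgeR's quasi-likelihood test 0 of 7 passed, where 7.87% of all genes did (5 against 6 mice), and 2 of 7, G6pc and Pygl, had an unadjusted p under 0.05. DESeq2 and limma voom each called 1 gene, G6pc, where they called 10.2% and 10.7% of all genes. For G6pc the log2 fold change was -1.30 (SE 0.526, adjusted p = 0.131), from a mean of 1113 ± 495 CPM (SD, n = 6) in controls to 452 CPM in knockout mice. The groups overlapped through mice 10 and 21. Without knockout mouse 10 the log2 fold change was -1.91 and passed (adjusted p = 0.0299). The 3 controls of the first series had 908 to 1804 CPM and the 3 of the second 433 to 1218 CPM, and with the series as a term the log2 fold change was -0.80 (SE 0.558, adjusted p = 0.559). For Pygl it was -0.49 (SE 0.191, adjusted p = 0.112), from 366 ± 72.0 CPM (SD, n = 6) to 262 ± 57.5 CPM (n = 5), with overlapping groups. Pygl passed without knockout mouse 21, whose level of 359 CPM was the highest of that group (-0.62, adjusted p = 0.0485).

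The remaining 5 genes differed less from controls. Pck1 had a log2 fold change of -0.48 (95% interval -1.19 to 0.22), Fbp1 of -0.41 (-0.88 to 0.07) and Khk of -0.40 (-0.84 to 0.05). For Gys2 it was -0.10 (-0.82 to 0.63) and for Slc2a2 0.23 (-0.22 to 0.69). These intervals do not show equal levels. In the same comparison 7.87% of all genes were called. Of 8 hepatocyte markers 1 rose and 1 fell, with 5 at an unadjusted p under 0.05. Their median log2 fold change was -0.52, where that of the 7 genes was -0.41. Of 8 periportal markers 1 fell, and of 8 pericentral ones none was called and 0 had an unadjusted p under 0.05. Of the markers of other cells, 8 of 12 Kupffer cell, 2 of 6 biliary, 1 of 11 stellate and 1 of 12 endothelial markers rose, and 4 of 5 acinar markers fell. The summed acinar markers were 2534 CPM in control mouse 6 and 161 CPM in mouse 7, but 0.902 to 9.18 CPM in the other 4 controls and 0 to 5.14 CPM in knockout mice. The untreated knockout libraries with the lowest G6pc, mice 4 and 5, had the highest summed Kupffer markers, 1526 and 849 CPM. They also had the highest summed stellate (1465 and 987 CPM) and endothelial markers (510 and 349 CPM). Among untreated controls mouse 19 had the lowest G6pc, 433 CPM, and the highest summed Kupffer and stellate markers, 375 and 629 CPM. The part of these marker differences in the levels of the 7 genes was not tested.

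After CCl4 no gene of the 7 passed between genotypes, and the fold change farthest from 0 was that of G6pc. It was at 129 to 273 CPM in the 4 knockout mice and at 324 to 844 CPM in the 3 controls, so the groups did not overlap, as for 5.84% of all genes in this direction. Its log2 fold change was -1.62 (SE 0.646) and did not pass over all genes (adjusted p = 0.323). By edgeR 0 of 7 genes passed, where 0.176% of all genes did, 1 of 7 had an unadjusted p under 0.05, and DESeq2 and limma voom called none. In an edgeR fit of these 2 groups alone G6pc passed (log2 fold change -1.63, SE 0.324, adjusted p = 0.0486). The lowest control, mouse 16 at 324 CPM, is the only one of the same file series as the knockout mice. With the series as a term the log2 fold change of G6pc was -0.91 (SE 0.731, adjusted p = 0.867), within the second series -0.71 (SE 1.01), and with mouse 15 moved to the knockout group -0.63 (adjusted p = 1). Slc2a2 had a log2 fold change of 0.48 (95% interval -0.10 to 1.05), Gys2 of 0.25 (-0.68 to 1.18), Khk of 0.23 (-0.35 to 0.80) and Pygl of 0.22 (-0.27 to 0.72). For Slc2a2 the groups overlapped with TMM factors. On library totals alone the knockout mice, at 389 to 570 CPM, lay wholly above the controls, at 248 to 376 CPM. The share of all genes lying so on totals was not counted. Pck1 was at -0.14 (-1.02 to 0.75) and Fbp1 at -0.20 (-0.80 to 0.39). Among the marker lists 2 of 6 biliary markers rose in this comparison and no other marker was called.

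The CCl4 effect itself was compared between genotypes by the interaction term. None of the 7 genes passed by edgeR, DESeq2 or limma voom, where edgeR called 0.217% of all genes, and 1 of 7 had an unadjusted p under 0.05. That gene was Pygl, whose CCl4 effect was less negative in knockout than in control mice by 0.71 in log2 units (SE 0.307, adjusted p = 0.414). Its group means were 366 and 199 CPM in controls without and with CCl4, and 262 and 233 CPM in knockout mice. For Khk the difference was 0.62 (SE 0.351, adjusted p = 0.586), and for the other 5 genes it lay between -0.31 (G6pc) and 0.35 (Pck1). At this size the design has little power for such differences. Counts of 9679 genes were simulated with an interaction in a small random part of them. Of the genes given a 2-fold interaction 4% were recovered, and of those given a 4-fold one 61%. Among the marker lists 1 of 6 biliary markers was called in the interaction, above 0, and no other marker was. An unadjusted p under 0.05 was held by 11 of 12 Kupffer cell markers (median -3.11) and 6 of 11 stellate markers (median -2.67). So did 3 of 6 biliary, 2 of 12 endothelial and 1 of 8 hepatocyte markers. Their part in the interaction values of the 7 genes was not tested.

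Other genes of sugar metabolism, 91 in 7 lists with 77 tested, moved in both directions after CCl4. In controls 23 fell and 8 rose (median log2 fold change -0.32), which is 40.3% called where 27.4% of all genes were. In knockout mice 10 fell and 3 rose (median -0.19), 16.9% where 13.9% of all genes were called, so that share lay near the background. With libraries thinned, 20 genes of the lists passed in controls, where 16.3% of all genes tested did. In knockout mice 6 passed with libraries thinned, where 7.26% of all genes did. Without the filter on low counts 8 passed there, where 4.28% of all genes did. The number of list genes tested can differ from 77 in these settings. Among genes that control hepatic glycolysis 4 of 8 fell in controls (median -0.42), 50% called where 27.4% of all genes were. Among these, Gckr, a regulatory protein of hepatic glucose use, fell by 1.43 on the log2 scale (adjusted p = 0.000146) and Pdk2, a kinase that switches off pyruvate dehydrogenase, by 2.11 (adjusted p = 2.90e-05). In knockout mice 3 of the 8 fell, 37.5% called where 13.9% of all genes were, among them Pdk2 by 1.68 (adjusted p = 0.000621).

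Of the steps shared by gluconeogenesis and glycolysis 5 of 14 fell and 1 rose in controls (median -0.28), 42.9% called where 27.4% of all genes were. Slc37a4, the transporter that brings glucose 6-phosphate to the G6pc enzyme, fell by 1.39 on the log2 scale in controls (adjusted p = 0.000983) and by 1.39 in knockout mice (adjusted p = 0.00154). Mdh1, cytosolic malate dehydrogenase, fell by 1.08 in controls (adjusted p = 0.00121). Ldha, the lactate dehydrogenase subunit that favours lactate production, rose from 266 ± 47.3 to 530 ± 205 CPM in controls (log2 fold change 1.00, adjusted p = 0.00184) and from 369 ± 47.6 to 856 ± 204 CPM in knockout mice (1.22, adjusted p = 0.000657). In knockout mice 2 of these 14 rose and 2 fell, 28.6% where 13.9% of all genes were called.

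Of the glycogen genes other than Gys2 and Pygl, 3 of 15 fell and 1 rose in controls (median -0.32). These 26.7% lay near the 27.4% called over all genes. Gbe1, the branching enzyme, fell by 1.01 on the log2 scale (adjusted p = 0.00467). Epm2a, the glycogen phosphatase laforin, fell as well (adjusted p = 0.00852), with 49 counts over the 6 untreated and 3 over the 3 treated controls. Per unit of pooled library size its level was 12.7 times as high without CCl4 (95% interval 4.11 to 63.9, counting error only). Pgm2, a symbol that has stood for different phosphoglucomutases, rose from 4.51 ± 3.14 to 8.94 ± 1.34 CPM (log2 fold change 1.32, adjusted p = 0.0143). In knockout mice 1 of 15 passed, Ppp1r3b, which tethers a phosphatase to glycogen (log2 fold change -1.62, adjusted p = 0.0370), which is 6.67% where 13.9% of all genes were called. Without CCl4, Phkb, a phosphorylase kinase subunit, was lower in knockout than in control mice, 13.5 ± 3.36 against 22.3 ± 5.39 CPM (log2 fold change -0.79, adjusted p = 0.0312).

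Genes that handle fructose, sorbitol and galactose, beside Khk, fell in 4 of 9 cases and rose in 2 in controls (median -0.61), 66.7% called where 27.4% of all genes were. The fructose transporter Slc2a5 fell by 1.77 on the log2 scale (adjusted p = 0.00162), sorbitol dehydrogenase Sord by 1.20 (adjusted p = 0.00242) and Galm, which interconverts the anomers of galactose, by 0.86 (adjusted p = 0.00122). In knockout mice 2 of 9 fell, including Sord by 1.20 (adjusted p = 0.00295), and the galactokinase Galk1 rose by 1.24 (adjusted p = 0.000721), 33.3% called where 13.9% of all genes were. No pentose phosphate gene of 7 passed after CCl4 in either genotype, and none had an unadjusted p under 0.05. In that list Pgd, 6-phosphogluconate dehydrogenase, was higher in knockout than in control mice without CCl4 (41.5 ± 19.6 against 19.3 ± 1.98 CPM, log2 fold change 1.09, adjusted p = 0.00733).

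Isoforms typical of other tissues rose in 3 of 6 cases and fell in 1 in controls (median 1.10), 66.7% called where 27.4% of all genes were. In knockout mice 1 of 6 fell, 16.7% called, which lay near the 13.9% over all genes. Pkm, the pyruvate kinase of most tissues outside the liver, went from 2.38 ± 1.47 to 10.98 ± 6.04 CPM (log2 fold change 2.66, adjusted p = 0.00118), and brain glycogen phosphorylase Pygb from 2.66 ± 1.04 to 10.5 ± 3.13 CPM (2.15, adjusted p = 0.000531). Aldoc, the brain aldolase, fell by 2.56 in controls (adjusted p = 5.22e-06) and by 1.45 in knockout mice (adjusted p = 0.00224). Untreated knockout mice already had 5.75 ± 5.49 CPM of Pkm and 6.01 ± 5.63 CPM of Pygb. Kupffer and stellate markers were higher in treated than in untreated controls, as given above, and their part in these low levels was not tested.

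Among 18 genes of hormone signalling and transcriptional control 6 fell and 1 rose in controls (median -0.61), 38.9% where 27.4% of all genes were called. In knockout mice 1 fell, 5.56% where 13.9% of all genes were called. The glucagon receptor Gcgr fell by 0.96 on the log2 scale (adjusted p = 0.000940), the carbohydrate-responsive factor Mlxipl (ChREBP) by 1.28 (adjusted p = 0.00128) and the liver transcription factor Cebpa by 1.35 (adjusted p = 0.00373). Cebpa was the gene that fell in knockout mice (log2 fold change -0.95, adjusted p = 0.0396). Without CCl4 the kinase Sik1, which restrains gluconeogenic transcription, was higher in knockout than in control mice, 19.95 ± 5.43 against 10.5 ± 2.16 CPM (log2 fold change 0.91, adjusted p = 0.0234). It was 1 of 3 genes of the 7 lists called in that comparison, with Phkb and Pgd, which is 3.9% where 7.87% of all genes were called. By DESeq2 6 genes of the lists passed there, where 10.2% of all genes did, and without the filter on low counts 5, where 3.15% did. With libraries thinned 1 passed, where 1.25% of all genes did, and with the series as a term 1, where 0.816% did. In the second series alone none passed, where 0.487% of all genes did. After CCl4 none of the 77 genes was called by genotype, where 0.176% of all genes were, with 13 at an unadjusted p under 0.05. DESeq2 called 1 of them there, and 0.537% of all genes. None was called in the interaction, where 0.217% of all genes were, with 8 at an unadjusted p under 0.05.

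**Figure D4:**
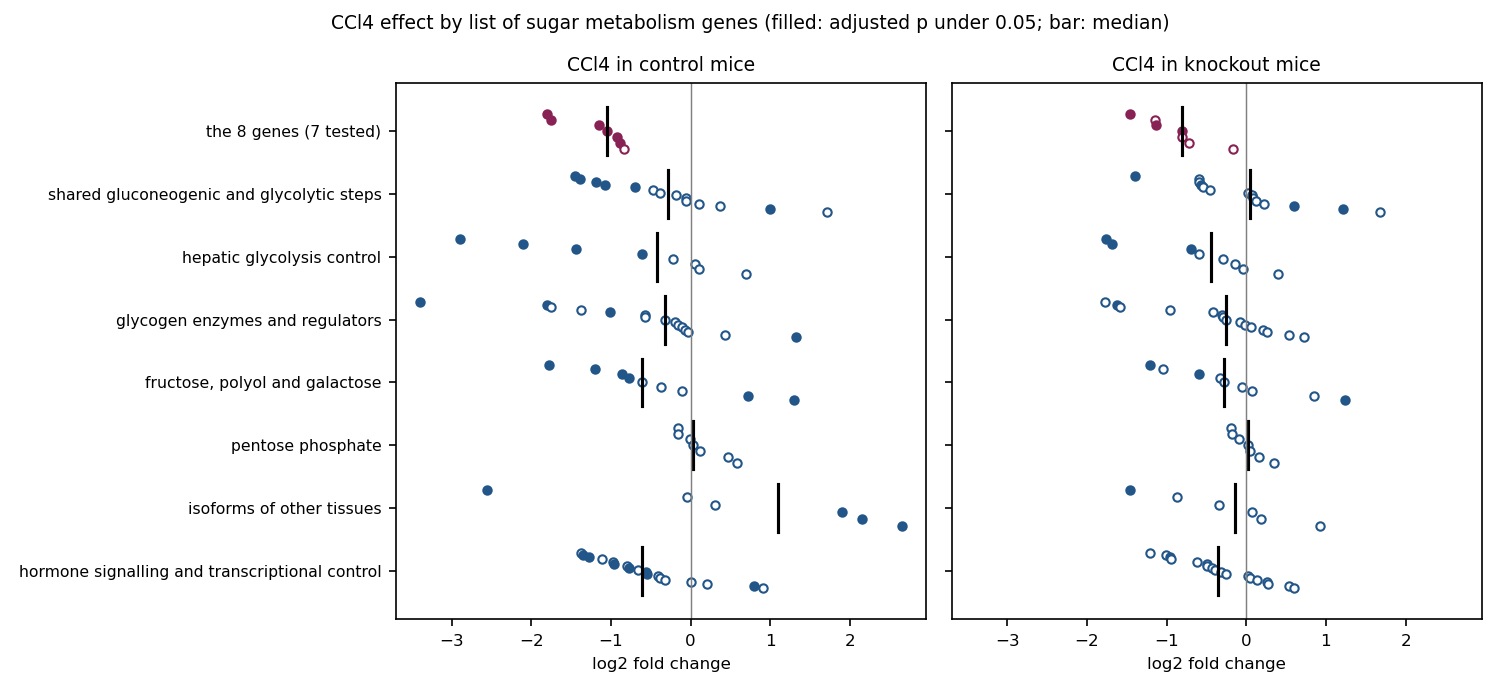
Log2 fold change after CCl4 in control mice (left) and knockout mice (right) of each tested gene, by list. Filled points have an adjusted p under 0.05 and bars mark the list medians. The 7 tested genes of the 8 have medians of -1.05 and -0.81, and the pentose phosphate list has no filled point in either panel.

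The genes whose levels most resembled those of the 7 over the 18 libraries were found by Pearson correlation of log2 CPM. Pck1 was most like N4bp2l1 (r = 0.94), Il6ra (0.93) and Glt1d1 (0.92), and Khk most like Gstz1 (0.94), Ndrg2 (0.94) and Dcxr (0.94). The closest to Fbp1 were Cyp2b9 (0.93), B2m (0.92) and Abat (0.89), and those to G6pc included Sdc4 (0.87) and Rab10 (0.86). Those closest to Slc2a2 included Slc37a4 (0.90), the transporter of glucose 6-phosphate, and Gne (0.89). For Gys2 they were Slc10a1 (0.89), Auh (0.85) and Orm3 (0.83), and for Pygl Slc25a47 (0.89), Aldh9a1 (0.88) and Pxmp2 (0.88). These are among the highest of 9679 genes, and the 18 libraries share the 4 groups and 2 depth ranges, so the values are descriptions and carry no p.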

How the data were processed

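For the 18 hepatocyte libraries the authors deposited raw counts of reads by gene symbol, 24951 genes in all. Hepatocytes were spun at low speed, separated on Percoll and sorted as cells without propidium iodide, and made into QuantSeq 3′ forward libraries, per the labels' protocols. Trimmomatic 0.39, HISAT2 2.1.0 and the build GRCm38 (mm10) are named in the submitters' processing notes. The counter, its annotation and its use of strand are not stated in the sources used here. The number in each library title was taken as the mouse number, which no label states in words. The p-values weigh differences against the spread between these libraries.

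Counts were fitted in R 4.3.3 with edgeR 4.0.16 (filterByExpr, TMM, adjusted deviances, robust quasi-likelihood F tests, 1 fit of 4 groups, Benjamini-Hochberg over 9679 genes at 0.05). Standard errors come from dividing the log2 fold change by the root of the F statistic, and they and their 95% intervals are approximate. Alternatives included RLE factors, DESeq2 1.42.0 and limma voom 3.58.1, and earlier edgeR deviances were added after seeing the data. Within groups every pair of libraries differed beyond counting noise, with a chi-square of 5.76 to 42.5 times its degrees of freedom. Counts of 9679 genes were also simulated with a change in a small random part of them. Of these, at 4-fold 81% were recovered (CCl4 in control mice), 79% (CCl4 in knockout mice), 88% (knockout without CCl4) and 74% (knockout after CCl4). At 2-fold the shares were 33%, 25%, 41% and 19%. With so few changed genes the adjusted threshold is stricter than in the CCl4 comparisons, where many genes were called. The shares need not hold there.

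The members and lists were chosen with earlier results of these data known. Named were all 8 genes, up to 3 called genes of lowest p per list for CCl4 in control mice and up to 2 for each other comparison, and the 3 most correlated genes per member. A few genes that this rule names are not reported here.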

Additional observations from a re-analysis of the deposited data

Results flagged for a closer look

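Of 24 sets of values (each of the 8 genes in each of the 3 groups of 4 to 6 mice), 2 held a library far from the rest, where chance gives about 1 in 20. Khk in knockout mice after CCl4 was at 122 CPM in mouse 14, against 68.5 to 74.8 CPM in the other 3 mice of the group. Slc2a2 in knockout mice without CCl4 was at 839 CPM in mouse 10, against 620 to 681 CPM in the other 4. Without mouse 14 the log2 fold change of Khk after CCl4 in knockout mice was -1.36 (adjusted p = 0.00209 by edgeR's quasi-likelihood test), and without mouse 10 that of Slc2a2 was -0.73 (adjusted p = 0.0801).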

How the results depend on the processing

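Every fold change of the 7 tested genes after CCl4 stayed below 0 in both genotypes under each alternative run. All of these scaled libraries by TMM, RLE or DESeq2 factors, and none by library totals alone. On totals, mean Pygl in knockout mice was 277 CPM with CCl4 against 258 CPM without it. Mean Fbp1 in controls was 546 against 790 CPM on that scale. The number called after CCl4 in control mice went from 6 to 1 in the second file series alone and to 3 with mouse 15 moved to the knockout group, and lay between 4 and 6 when each library was left out. After CCl4 in knockout mice it went from 3 to between 1 and 4 with a library left out, and to 1 without mouse 14 or 18. For the knockout without CCl4 it went from 0 to 1 by DESeq2 and by limma voom, and lay between 0 and 1 with a library left out. For the knockout after CCl4 it went from 0 to 1 when the 2 groups were fitted alone (G6pc, adjusted p = 0.0486). No gene passed in the interaction under any of 28 alternatives.

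Signs turned only for fold changes that had not passed. Gys2 in the knockout without CCl4 was at 0.036 by limma voom and between -0.29 and 0.14 with a library left out. Gys2 in the knockout after CCl4 was at -0.10 with the series as a term, -0.25 in the second series, -0.091 with mouse 15 moved and between -0.0070 and 0.52 with a library left out, where Pck1 lay between -0.40 and 0.024. In the interaction G6pc was at 0.10 by limma voom, 0.17 in the second series, 0.68 with mouse 15 moved and between -0.62 and 0.29 with a library left out. With mouse 15 moved, the interaction of Fbp1 was -0.020 and that of Slc2a2 -0.0071. The cause was not tested.

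Counts over all genes moved as well. After CCl4 in control mice 2652 genes were called, but 502 in the second series and 1435 with each library thinned to the smallest total. In knockout mice 1341 were called, but 638 thinned and 751 without mouse 18. For the knockout without CCl4 the 762 calls became 79 with the series as a term, 50 in the second series, 336 in a fit of the 2 groups alone, 110 thinned and 288 to 922 with a library left out. After CCl4 the 17 calls became 38 without a filter, 52 by DESeq2, 49 by limma voom, 50 from the 2 groups alone, 3 with the series term, 1 in the second series, 0 with mouse 15 moved, 6 thinned and 4 to 130 with a library left out. In the interaction the 21 calls became 34 with RLE factors, 113 without a filter, 61 by DESeq2, 33 by limma voom, 54 with the series term, 0 in the second series, with mouse 15 moved, thinned or with earlier deviances, and 0 to 93 with a library left out. No paired analysis was possible because the hepatocyte groups share no mouse number.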

Other observations

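The 16 libraries of sorted liver macrophages of the same series also held counts of these genes, with Gys2 in 13 of them, Pklr in 7 and the other 6 genes in all 16, and with hepatocyte transcripts such as albumin (Alb) present in each. Per 1000 Alb counts, Pck1 was at 14.1 to 160 in macrophage and 18.2 to 145 in hepatocyte libraries, and G6pc at 3.29 to 29.7 and 1.79 to 34.1, so these ranges were much alike. Fbp1 (6.16 to 22.7 against 6.78 to 19.9) and Slc2a2 (7.64 to 16 against 5.87 to 14.8) were alike too. Pygl stood apart, with a median of 19.2 and a range of 6.85 to 412 per 1000 Alb counts in macrophage libraries against 4.74 and 3.11 to 7.85 in hepatocytes. Khk had a median of 7.97 (2.93 to 108) against 2.52 (1.29 to 5.46). The highest macrophage values of Pygl, Khk and Slc2a2 per 1000 Alb counts all lay in treated controls, where a library held only 250 Alb counts. As shares of all counts, Pygl was at 57.7 to 161 CPM of the library total in macrophage libraries and 182 to 385 in hepatocyte libraries, and Khk at 15.9 to 81.6 against 77.0 to 293. The macrophage libraries held 596380 to 5128587 counts.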
